A study of Homo sapiens with 16 samples.

Results

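The m6A peak lists of MDV-R, an enzalutamide-resistant human prostate cancer cell line, were described on their own. All peaks of the 4 lists called from MDV-R immunoprecipitations were taken, 107508 of the 191974 peaks in the series, with no threshold of strength. The labels give MDV-R as human prostate cancer cells of wild-type (WT) genotype, sampled on day 3 of confluent growth in RPMI medium with serum and antibiotics. Per the methods of the study, the line was obtained by serially exposing C4-2B cells to enzalutamide, an antiandrogen drug, and was kept in medium that holds the drug, which the labels do not mention. MDV-R is a single derived line, so that the lists describe this line and not enzalutamide resistance in general. Each of the 4 replicates had an immunoprecipitated (IP) library, made with an antibody against m6A, and an input library of the same RNA without antibody, 8 of the 16 samples in all. Nothing in the labels says that the replicates were separate cultures, so their spread may be technical.

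m6A is the most common internal modification of eukaryotic mRNA. A writer complex built around METTL3 and METTL14 places it on adenosines in short motifs that share the consensus DRACH, of which GGAC followed by a T is the classic form. Reader proteins of the YTH family bind it and can direct the decay, splicing or translation of a transcript, and the erasers FTO and ALKBH5 can remove it. In a MeRIP-seq experiment RNA is fragmented and the pieces held by the antibody are sequenced beside input, so that a peak marks a stretch of nucleotides (nt) as long as the fragments or longer and not a single modified base.

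In the labels the cell line field of these samples says MDVR, but their titles also hold T24R2, the name of a different line. The cell line field was followed. Markers were therefore checked, with a peak in all 4 lists as the measure, which reads m6A and RNA level together and is no measure of either alone. Of 13 prostate luminal markers 9 had such a peak, among them KLK2, KLK3, HOXB13, FOLH1 and TMPRSS2, against 2 of 14 urothelial markers (UPK3A and PSCA), 4 of 14 mesenchymal markers of the T24 bladder line (VIM, COL5A1, LOXL2 and NT5E) and 2 of 15 neuroendocrine markers (SYT4 and POU3F2). PSCA, counted here as urothelial, encodes prostate stem cell antigen and does not set urothelium apart from prostate. The background for these counts was 37.7% of 19970 protein-coding genes with a region in 4 lists, 34.1% with an exonic one and 50% with a region in at least 1 list. Of the luminal markers, STEAP1, TRPM8 and the keratins KRT8 and KRT18 had no peak in any list.

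Examples of the motif lying under reproduced peaks are printed because the motif and its place in the transcript carry most of what follows. Each line gives 21 nt of the hg38 reference on the strand of the gene, 5′ to 3′, with the GGAC nearest to the strongest summit in capitals. They come from the coding end of RNF168 (minus strand, chr3:196472188-196472208), the long coding exon of TRIM56 (plus, chr7:101088381-101088401), the coding end of GFOD1 (minus, chr6:13364863-13364883) and of PIK3CA (plus, chr3:179234301-179234321), the last exon of KLK3 (plus, chr19:50860095-50860115), the 3′UTR of THBS1 (plus, chr15:39595746-39595766), the long coding exon of YTHDF2 (plus, chr1:28743655-28743675) and the lncRNA MALAT1 (plus, chr11:65500471-65500491).
RNF168: gaagaacaGGACaggttattg
TRIM56: gggctcctGGACaagaactgc
GFOD1: tgcgtggtGGACaccatcaag
PIK3CA: tggtggctGGACaacaaaaat
KLK3: tggatcaaGGACaccatcgtg
THBS1: agaagggaGGACtcactagaa
YTHDF2: acggcagtGGACacttctgtg
MALAT1: tgaagctaGGACtgaggagca
A match is a description of the sequence, not a mapped modified base. The examples were taken from regions with a GGAC within 50 nt of the strongest summit. It lay at -6 nt from the summit in MALAT1, the nearest, and at 47 nt in KLK3, the farthest. Lacking it was common. Among regions found in all lists, 48.4% of coding and 50.8% of 3′UTR regions had a GGAC within 50 nt of the strongest summit. Many regions described below had none, among them those of ZBTB7B, NEAT1, SOX4, FOXA1, MYC, JUN and FTO.

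The lists of replicates 1 to 4 held 23880, 27131, 25852 and 30645 peaks. Each list gives a fold enrichment of IP over local background and a −log10 p for every peak, and from this pair the whole number of IP fragments at the summit could be solved for 99.99% to 100% of peaks, against 0.0461% to 0.199% when fragment numbers lying between whole numbers were tried instead. The summits of a list held a median of 26, 24, 29 and 22 fragments and 904640, 1020066, 1091931 and 1029073 fragments in all. Heights are given below as fragments, or as fragments per 1000000 of this total (fpm), with the local input background scaled to the IP library in the same unit. Replicate 3 stood apart in its input: the IP library held 0.642 times the coverage of its input there, against 0.363, 0.317 and 0.370 times in replicates 1, 2 and 4. Its fold enrichments were also lower, with a median of 7.45 against 8.53, 8.94 and 9.01. The part of the shallower input in the lower fold enrichment was not tested.

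Joined by 1 bp of overlap, the lists gave 36253 union regions, of which 17302 (47.7%) had a peak in all 4 lists. A further 4519 (12.5%) had a peak in 3 lists, 4958 (13.7%) in 2 and 9474 (26.1%) in 1 list alone. The regions found everywhere were the tall and wide ones. Their median height was 36.5 fragments against 10 fragments for regions of 1 list, their median fold enrichment 11.1 against 6.01, and their median width 839 nt against 292 nt, the width of a union being free to grow with the number of lists that enter it. Of the strongest 10% of peaks by −log10 p, 99.9% to 100% per list met a peak in all 3 other lists, and of the weakest 10%, 13.4% to 33.0% did.

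Regions of a single list were unevenly spread over the replicates. Replicate 4, with the most peaks, held 4375 of them, replicates 2 and 3 held 2200 and 1962, and replicate 1 held 937. The share of a list's peaks that met a peak in all 3 others ran in the opposite direction, with 76.2% in replicate 1, 72.2% in replicate 3, 65.5% in replicate 2 and 58.8% in replicate 4. A single list gave 26877 regions on average, 2 lists 31502, 3 lists 34257 and all 4 lists 36253, so that regions were still being added at the last list.

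The place of the summit changed with the number of lists. Among regions in 4 lists, 5913 (34.2%) had their strongest summit in coding sequence and 3155 (18.2%) in a 3′UTR. The 5′UTR held 880 (5.09%), exons with no coding annotation 1958 (11.3%), introns 3255 (18.8%) and the space between genes 1338 (7.73%). The remaining 803 lay on chromosome Y or on unplaced contigs. Exons held 68.8% of the regions in 4 lists, 46.5% of those in 3, 43.4% of those in 2 and 39.1% of those in 1, while introns went from 18.8% to 40.9% over the same steps. Read the other way, 66.0% of all coding regions and 64.5% of all 3′UTR regions were found in every list, against 30.8% of intronic and 33.2% of intergenic regions. Height moved with these classes. In 4 lists, coding regions had a median of 57.5 fragments, 3′UTR regions 48.0, intronic regions 21.25 and intergenic regions 19.5.

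Heights repeated closely between replicates, and fold enrichments less so. Over the 17302 regions in 4 lists, Pearson's r of log2 fpm was 0.955 to 0.963 for the 6 pairs of replicates, r of the log2 background was 0.871 to 0.901 and r of log2 fold enrichment was 0.635 to 0.781. These are descriptions across regions of the same 4 replicates and were given no test. The median coefficient of variation over the 4 lists was 12.6% for height, 28.8% for fold enrichment and 44.4% for background. Counting error alone gives 16.6% at 36.5 fragments, more than the 12.6% found for height. The 12.6% is a median over regions of spreads from 4 values, and the 16.6% belongs to a single count. These unlike measures do not show that heights repeat better than counting allows. The summits of a region lay a median of 79 nt apart at their farthest, and within 100 nt in 59.0% of regions. Height and background rose together across regions (r = 0.809 on the log2 scale), so that a tall summit in these lists is also, in general, a summit in RNA that is plentiful in the input.

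The question of where along the mRNA the summits fell was put to 9270 regions that could be placed in the canonical coding transcript of 6442 genes, with each list's own summit. Within 200 nt of the stop codon the density was 1.07 ± 0.0127 summits per kb (SD, n = 4 lists). The rest of the coding sequence held 0.335 ± 0.00119 per kb, the 5′UTR 0.363 ± 0.00194 and the rest of the 3′UTR 0.114 ± 0.00301. In the 4 lists, in order, the stop codon window held 1.06, 1.07, 1.07 and 1.09 summits per kb and the coding sequence 0.335, 0.335, 0.335 and 0.333. No value of either zone overlapped the other. The difference was 0.737 ± 0.0138 summits per kb, higher at the stop codon in 4 of 4 lists, with p = 0.125 by an exact two-sided sign-flip test, the smallest value that 4 lists allow. The stop codon window held 29.7% of the summits on 8.17% of the transcript length, and the rest of the 3′UTR held 17.8% on 46.0%.

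**Figure D1:**
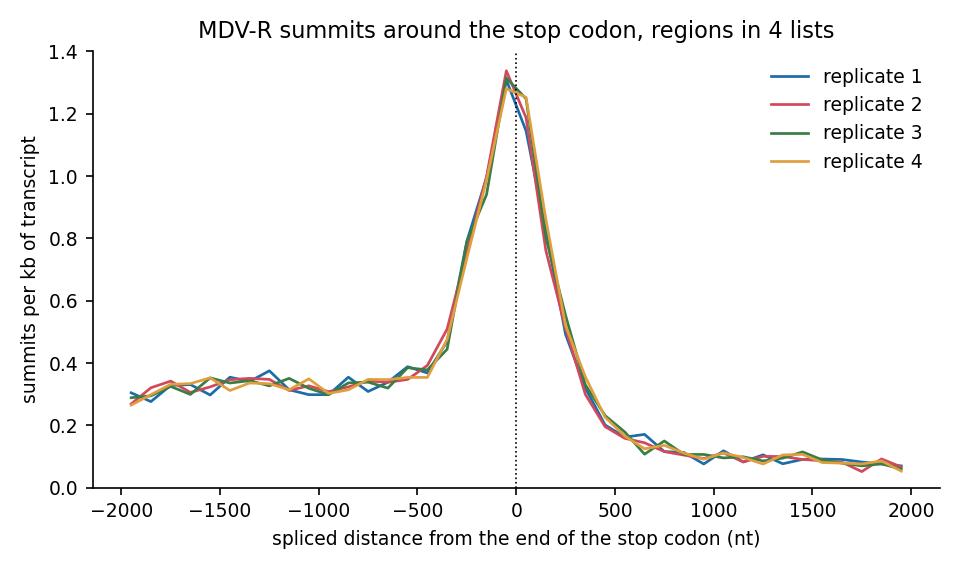
Density of summits per kb of canonical transcript (vertical axis) against spliced distance from the end of the stop codon in nt (horizontal axis, negative in the coding sequence), with 1 line per MDV-R replicate, for regions in 4 lists. All 4 lines peak in the 100 nt bins on either side of the stop codon and fall lower in the 3′UTR than in the coding sequence.

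The rise was sharp on both sides. The last 100 nt of the coding sequence held 1.31 ± 0.0236 summits per kb and the 100 nt after the stop codon 1.21 ± 0.0518. At 300 to 400 nt into the 3′UTR the density was 0.327 ± 0.0234, and at 900 to 1000 nt it was 0.0924 ± 0.0125. In the coding sequence it stood at 0.475 ± 0.0266 in the bin from 400 to 300 nt before the stop codon. No such rise was seen at the start codon, where the bins from 100 nt before to 100 nt after held 0.344 ± 0.0250 and 0.374 ± 0.00651 summits per kb. Regions at the stop codon had a median of 56.5 fragments and a fold enrichment of 11.4, against 57.75 fragments and 11.9 in the rest of the coding sequence.

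Long exons held most of the coding regions that lay outside the first and last exons. Of 2496 regions with a coding summit in such an exon, 83.6% were in exons of at least 400 nt. Of the 56575 internal exons of these genes that are coding throughout, 3.64% are that long, with 22.7% of the bases. The median internal exon with a region was 738.5 nt long, against 127 nt for the exons coding throughout. Per kb of exons coding throughout, long exons held 16.7 ± 0.544 times (SD, n = 4 lists) as many summits as short ones. The summits also include those in internal exons that hold the start or stop codon, whose full length was counted. The sets of exons are thus unlike, and the part of this in the share, the medians and the ratio was not tested. The narrowest peaks of the lists were 239 to 292 nt wide, wider than the median internal coding exon of 127 nt. Peaks were called on the genome, so that many short exons are narrower than any peak. The part of this limit in the ratio was not tested. The last exon held 62.9% of the regions of multi-exon genes on 59.4% of their transcript length, a nearly even share by length.

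GGAC was more frequent under the summits than beside them. In exonic peaks, 45.7%, 45.3%, 48.3% and 46.6% of summits in replicates 1 to 4 had a GGAC within 50 nt on the strand of the gene, against 28.9%, 29.1%, 28.5% and 28.7% of windows of the same size centred 300 nt away. On the opposite strand of the summit window the share was 28.3 ± 0.772% (SD, n = 4 lists). The excess over the distant windows was 17.6 ± 1.61 percentage points, positive in 4 of 4 lists (p = 0.125, exact two-sided sign-flip test). In intronic peaks the excess was 10.2 ± 1.54 points.

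Reproduced peaks held the motif more often than peaks of a single list, though not by much. Among exonic peaks met in all 3 other lists, 48.0 ± 1.03% (SD, n = 4) had GGAC at the summit, against 41.4 ± 3.69% of peaks met in none. The difference in excess was 6.13 ± 4.87 points, ran from 1.42 to 11.2 points and was positive in 4 of 4 lists (p = 0.125, exact two-sided sign-flip test, also after Benjamini-Hochberg adjustment over the 3 such tests). Across 10 equal groups of exonic regions in 4 lists, from the weakest to the strongest by −log10 p, the share with GGAC at the summit was 45.8%, 43.7%, 45.8%, 47.0%, 45.1%, 46.2%, 47.2%, 51.3%, 56.3% and 60.4%. The distant windows held it in 30.8%, 30.6%, 27.5%, 28.2%, 27.6%, 26.4%, 25.9%, 29.2%, 29.8% and 33.2% of the same groups, so that the gap between summit and distant windows was wider in each of the stronger 5 groups than in any of the weakest 5.

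**Figure D2:**
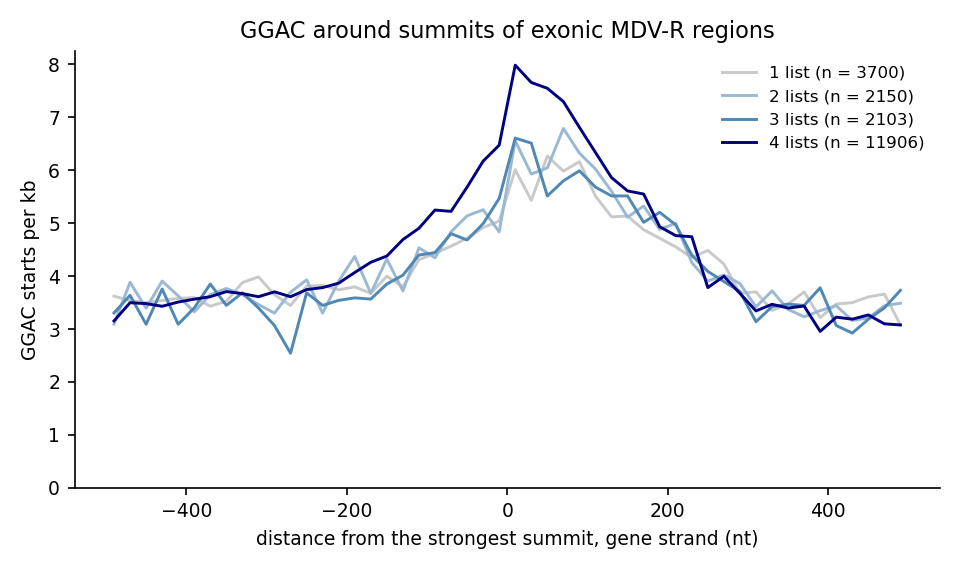
Starts of GGAC per kb (vertical axis) against distance from the strongest summit in nt on the strand of the gene (horizontal axis), for exonic regions in 1, 2, 3 or 4 MDV-R lists. The line for 4 lists reaches 7.99 per kb just downstream of the summit, above the 6.27 of regions in 1 list, and all lines come down to 2.92 to 3.91 per kb beyond 400 nt.

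The 18 forms of DRACH were unequally represented at the summits of exonic regions in 4 lists. GGACT occurred 2.25 times as often within 50 nt of the summit as in the distant windows and GGACA 2.02 times. AGACT (1.88), GAACT (1.78) and GGACC (1.66) followed. TAACC occurred 0.865 times as often, TAACA 0.855 times and TAACT 0.819 times, and AAACC was close to even at 1.04. Because DRACH is short, 91.4% of coding summit windows held some form of it and 82.6% of the distant windows did too.

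A ranking of transcripts, with 1 region per gene, used the percentile of −log10 p inside each list, averaged over the lists. It favours tall summits. RNF168, an E3 ubiquitin ligase that acts at DNA double-strand breaks, came first. Its region on chr3:196471871-196472723, in the last of 6 exons and at -418 nt from the end of the stop codon, had 232, 233, 255 and 214 fragments in replicates 1 to 4 with fold enrichments of 31.6, 44.7, 20.02 and 39.6. NR2F1, an orphan nuclear receptor, had 213, 240, 240 and 207 fragments 125 nt into its 3′UTR (chr5:93593305-93594379), with fold enrichments of 38.5, 36.2, 17.4 and 44.3. Both were well above the median height of 36.5 fragments in every list.

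RBM12B, an RNA-binding protein, had 204, 212, 236 and 200 fragments in a coding last exon of 8284 nt, with fold enrichments of 41.4, 41.6, 23.9 and 46.5. TRIM56, a ubiquitin ligase of antiviral signalling, had 181, 180, 200 and 180 fragments in a last exon of 10656 nt, at -1157 nt from the stop codon (chr7:101085307-101090194), with fold enrichments of 39.3, 56.2, 29.8 and 63.5. ZBTB7B, a zinc finger transcription factor, had 301, 282, 298 and 270 fragments at -64 nt from its stop codon, with fold enrichments of 19.4, 17.1, 10.7 and 32.2. In 5 of these 5 genes the fold enrichment was lowest in replicate 3, whose heights were not low. Further down the first 10 stood SOX4 and GMEB2, both DNA-binding regulators of transcription, DIDO1 and PNMA1. Of the 10 genes 7 had the summit in coding sequence and 2 in a 3′UTR, and PNMA1 had it in the 5′UTR of its only exon. In 10 of 10 the summit lay in the last exon of the canonical transcript, which is the only exon in SOX4 and PNMA1.

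The first 10 by fold enrichment had a median background of 1.61 fpm, and the first 1000 one of 2.15. All regions in 4 lists had a median of 2.28 fpm. Fold enrichment and background were only weakly related over these regions (r = -0.136 on the log2 scale). The first gene by fold enrichment was GFOD1, with 91, 88, 110 and 94 fragments at -89 nt from the stop codon (chr6:13363873-13365858). Its background was 1.204, 0.636, 1.31 and 0.498 fpm and its fold enrichments 44.04, 54.0, 45.6 and 62.8. MTCL1, a microtubule crosslinking factor, had 88, 114, 110 and 88 fragments and fold enrichments of 40.2, 54.5, 37.9 and 55.0. GMDS-DT, a lncRNA transcribed away from GMDS, had 101, 104, 120 and 110 fragments and fold enrichments of 38.9, 45.7, 34.1 and 53.9. NKPD1 had 54, 55, 82 and 73 fragments, the fewest among the first 10, and fold enrichments of 37.5, 42.3, 46.2 and 54.7. TRIM56 was the fifth and the only gene in the first 10 of both rankings. PIK3CA, the catalytic subunit of phosphoinositide 3-kinase, KCNQ5, a potassium channel, NEDD9, an adhesion scaffold, INHBE, a TGF-beta family subunit, and ZNF827, a zinc finger protein, filled the other places.

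Among 15146 regions in 4 lists that lay in genes, the first 100 regions of both rankings shared 12, and the first 1000 shared 419. The median height of the first 100 was 173.625 fragments by −log10 p and 94.875 by fold enrichment, and the median background 6.34 against 1.55 fpm. MALAT1 gave an example from the other end. This abundant nuclear lncRNA had 360, 415, 369 and 340 fragments on chr11:65498966-65501846, more than ZBTB7B in every list. It stood over a background of 116, 101, 162 and 89.1 fpm, and its fold enrichments were 3.40, 3.98, 2.08 and 3.68. A second MALAT1 region held 218, 233, 214 and 201 fragments. Neither column alone is a level of m6A.

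**Figure D3:**
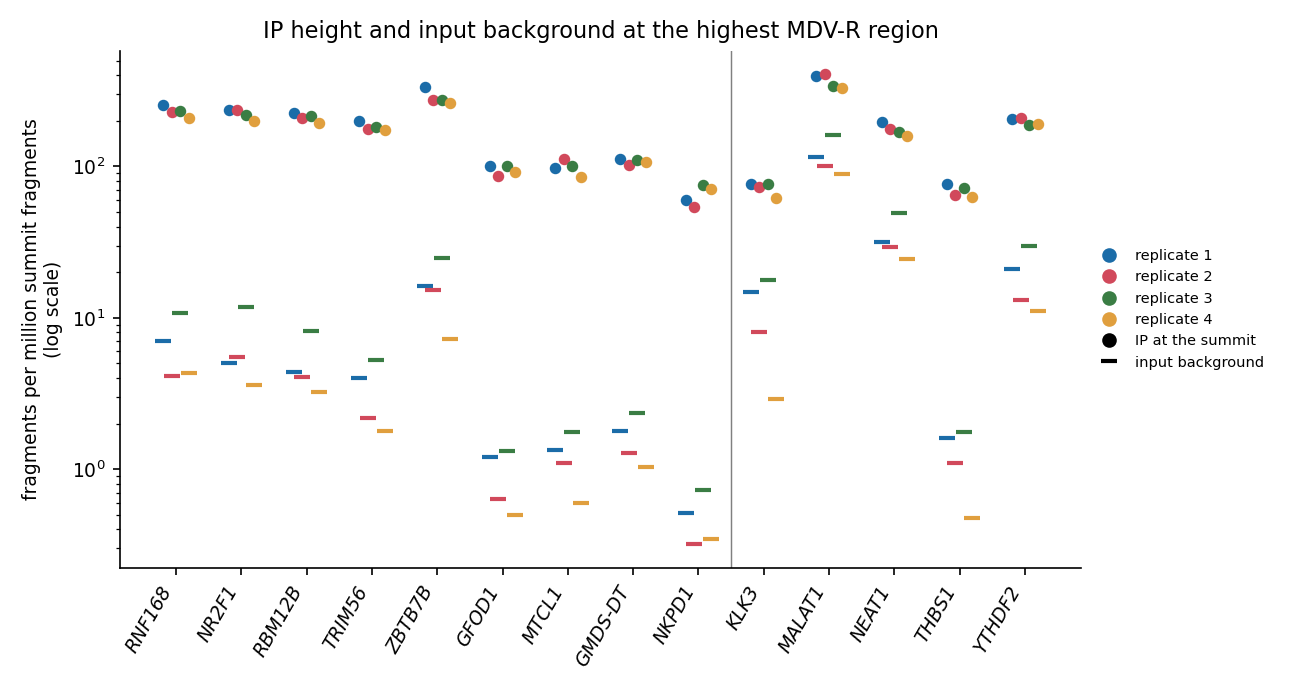
IP height at the summit (points) and local input background (dashes), both in fpm on a log axis, for the tallest region of each gene in the 4 MDV-R replicates. Left of the line stand the first 5 genes of each ranking and right of it 5 genes of interest, with MALAT1 at 330.4 to 407 fpm over a background of 89.1 to 162.

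A region in 4 lists lay in 9157 genes, 70.7% of the 12950 genes with any region, and in 75.3% of the 9994 such protein-coding genes. Of the 9157 genes, 3511 had at least 2, 1363 at least 3, 268 at least 5 and 13 at least 10. The 268 became 96 when exonic regions alone were counted, and 127 when a peak of each list had to cover 50% of the region. STXBP5L, which encodes an inhibitor of vesicle fusion, had the most with 19, of which 17 were intronic. They had a median of 24.75 fragments and 6 of the 19 had GGAC within 50 nt of the summit. LINC01667, annotated as a transcribed pseudogene, had 14 regions with 12 in introns, and the lncRNA MIR3667HG had 13 with 12 in introns. The methods kept uniquely mapped reads, so that copies of such sequences elsewhere in the genome could change these counts.

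Counted in exons alone the order changed. TNRC18 led with 9 exonic regions among its 16, with a median of 59.5 fragments over all its regions. MACF1, a giant linker of microtubules and actin, also had 9 exonic regions, 8 of them coding, in 70.573 kb of exon sequence. RNF213, a very large ubiquitin ligase, AHNAK, a giant scaffold protein, FAT1, a protocadherin, HIVEP2, a zinc finger transcription factor, and KMT2D, a histone H3 lysine methyltransferase, had 8 each. In AHNAK and FAT1 all 8 were in coding sequence. KMT2D regions were the tallest of this group, with a median of 92.5 fragments, and AHNAK regions the lowest, with 25. The lncRNA ENSG00000285756, ZC3H18, PDPK1 and TBC1D16 had 7 each. PDPK1 has a near-identical copy on the same chromosome, and its count is uncertain for that reason. Of the 10 regions of RNF213, 5 had their summit in the span of more than 1 gene.

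**Figure D4:**
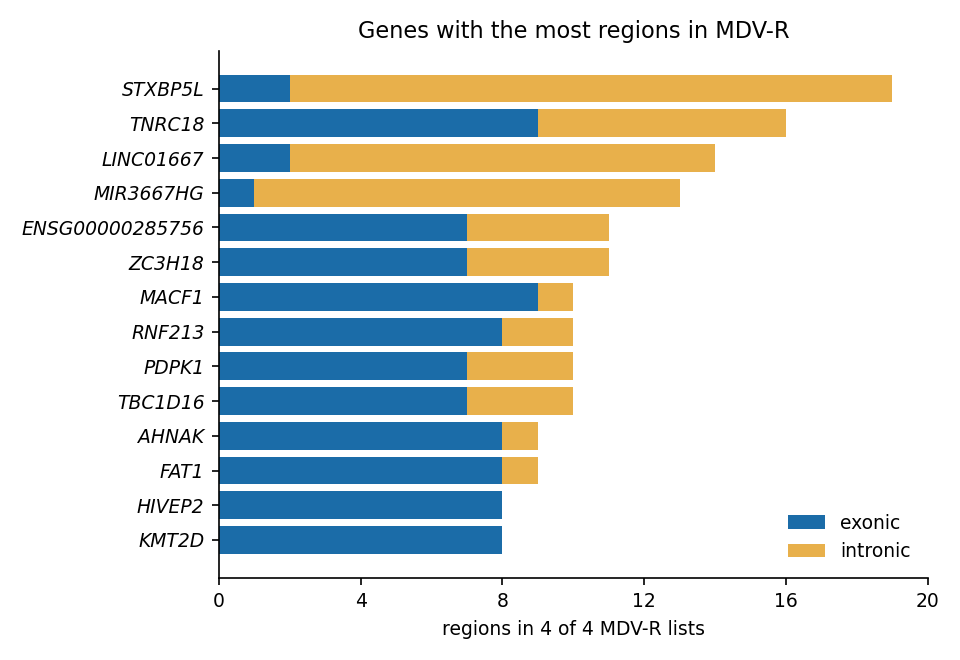
Number of regions in 4 of 4 MDV-R lists (horizontal axis) for the 14 genes with the most regions, or the most exonic regions, split into exonic and intronic summits. STXBP5L, LINC01667 and MIR3667HG carry mainly intronic regions, and MACF1, AHNAK, FAT1, HIVEP2 and KMT2D mainly or only exonic ones.

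Of 18 prostate transcription factors and steroid receptor cofactors, 15 had a region in 4 lists, against the 37.7% of protein-coding genes given above. These 15 were among 16 with a region in any list. Of protein-coding genes with a region in any list, 75.3% had one in 4 lists. FOXA1, the pioneer factor of luminal cells, was the tallest with 246, 288, 261 and 219 fragments. NCOA2, a p160 coactivator, had 194, 206, 217 and 191, HOXB13, a prostate homeobox factor, 175, 206, 205 and 175, and GATA2 188, 200, 193 and 164 over the tallest of its 6 regions. The acetyltransferases CREBBP and EP300 were close to these. KDM1A and FKBP4 had no region in any list, and HSP90AA1 had none in 4 lists.

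Of 21 androgen-induced genes 13 (61.9%) had a region in 4 lists and 11 an exonic one, against 37.7% and 34.1% of all protein-coding genes. A region in any list was found for 16 of the 21. Of these 16, 13 had a region in 4 lists, against 75.3% of protein-coding genes with a region in any list. KLK3, which encodes prostate-specific antigen, had 2, the taller of which lay at -70 nt from the stop codon (chr19:50859516-50860641) with 69, 75, 84 and 64 fragments and fold enrichments of 4.85, 8.22, 4.19 and 16.2. The lower, in exon 3, held 17, 26, 30 and 27. KLK2 stood higher, with 136, 158, 166 and 137 fragments in its 3′UTR and so did ZBTB10 with 174, 172, 184 and 176. The lowest were SORD, at 13 to 18 fragments, and PLPP1, at 13 to 17. TMPRSS2, the usual partner of the ERG fusion, had 3 regions of which the tallest held 37, 25, 33 and 27 fragments. Of 16 genes of steroid synthesis and inactivation, SRD5A3, at 88 to 110 fragments, and SRD5A1, at 8 to 11, had a region in 4 lists, which in SRD5A1 was intronic, against 37.7% of all protein-coding genes. Both belong by name to the steroid reductase family, and the other 14 genes had none in 4 lists.

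Of 12 writers of m6A, 9 (75.0%) had a region in 4 lists, all with the tallest summit in an exon, against 37.7% of all protein-coding genes. These 9 were all the writers with a region in any list, a group in which 75.3% of protein-coding genes had a region in 4 lists. METTL3, METTL5 and ZCCHC4 had no region in any list. RBM15B and RBM15, which recruit the complex to RNA, had 200, 218, 214 and 185 and 143, 137, 147 and 121 fragments. ZC3H13 had 172, 167, 169 and 156, METTL16 143, 169, 159 and 139, WTAP, the regulatory subunit, 129, 124, 147 and 125, CBLL1 112, 116, 122 and 91, and VIRMA, the large scaffold, 62, 57, 61 and 44. PCIF1, which methylates the cap-adjacent adenosine, had 77, 67, 87 and 70. METTL14, the partner of METTL3, was the lowest with 34, 35, 55 and 35 fragments, still near the median of all regions in 4 lists.

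Of 13 readers 8 (61.5%) had a region in 4 lists and 6 an exonic one, against 37.7% and 34.1% of all protein-coding genes. These 8 were among 10 readers with a region in any list. Of protein-coding genes with a region in any list, 75.3% had one in 4 lists. YTHDF2, the reader best known for mRNA decay, had 3, and its coding summit at -331 nt from the stop codon (chr1:28742255-28744020) held 187, 213, 204 and 195 fragments at fold enrichments of 9.46, 14.9, 6.07 and 15.7. YTHDF1 had 123, 133, 145 and 126 and YTHDF3 125, 133, 126 and 120 fragments. The nuclear reader YTHDC1 had 100, 119, 139 and 103 fragments, but over a high background, so that its fold enrichments were 3.72, 4.49, 2.52 and 6.75. PRRC2A had 85, 101, 70 and 92 fragments, and YTHDC2, IGF2BP3 and ELAVL1 stayed at 36 or fewer in every list, with intronic regions alone in YTHDC2 and ELAVL1. IGF2BP1, IGF2BP2 and FMR1 had no region, and HNRNPA2B1 and HNRNPC none in 4 lists. Both erasers had 1 region in 4 lists, against 37.7% of all protein-coding genes and 75.3% of those with a region in any list. The heights were 104, 105, 125 and 108 fragments in ALKBH5 and 40, 43, 50 and 44 in FTO. Fold enrichments were 6.19, 5.65, 4.04 and 8.75 in ALKBH5 and 6.36, 5.30, 2.23 and 8.28 in FTO.

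Transcripts with short half-lives, most of them transcription factors, had a region in 4 lists in 22 of 23 cases, against 37.7% of all protein-coding genes. All 23 had a region in any list, and of protein-coding genes with one, 75.3% had a region in 4 lists. SOX4 had 261, 292, 278 and 253 fragments, MYC 214, 269, 235 and 190, JUN 221, 242, 225 and 209, JUND 192, 215, 208 and 193, and CEBPB 181, 202, 225 and 193. ZFP36L1, an RNA-binding decay factor, had 153, 120, 143 and 113. The lowest were EGR1, at 11 to 22 fragments, and SOCS3, at 16 to 20. ATF4 was the exception, with a region that was not in 4 lists.

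Of the 12 transcripts that the study took to targeted assays, a list chosen on these samples and so no independent evidence, 11 had a region in 4 lists, 9 of them an exonic one, against 37.7% and 34.1% of all protein-coding genes, and CENPN had none. These 11 were all those with a region in any list, a group in which 75.3% of protein-coding genes had a region in 4 lists. THBS1, which encodes the matrix protein thrombospondin, had 4. Its 3′UTR summit, 395 nt after the stop codon (chr15:39595268-39596268), held 69, 66, 79 and 65 fragments over a background of 1.60, 1.09, 1.77 and 0.472 fpm, with fold enrichments of 28.6, 31.7, 27.3 and 44.4. Its coding summits in exon 11 and exon 19 held 35, 37, 49 and 35 and 42, 44, 37 and 34 fragments, and an intronic summit 39, 33, 39 and 40.

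The other assayed transcripts spread widely around THBS1. GRHL2, an epithelial transcription factor, had 119, 153, 149 and 139 fragments and SYT4, a synaptotagmin, 118, 137, 139 and 112, but SYT4 stood over a high background with fold enrichments of 3.91, 4.93, 2.46 and 5.91. FLRT1 had 90, 77, 105 and 81 at fold enrichments of 32.3, 51.05, 36.4 and 38.9. ATP2C2, PARP10, MACROH2A1, PRKACB, PAK4, TICRR and FN1 had 50 or fewer in every list. FN1, the gene of fibronectin, had 23, 23, 31 and 21.

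Of 18 long noncoding RNAs 9 had a region in 4 lists, against 6.42% of all 18756 lncRNA genes. An exonic region in 4 lists was found for 5.04% of them and a region in any list for 11.4%. The 9 were among 11 of the list with a region in any list. Of all 2145 lncRNA genes with a region in any list, 1204 had one in 4 lists. NEAT1, the scaffold of paraspeckles, had 1 region, on chr11:65422656-65425468, with 179, 180, 185 and 163 fragments and fold enrichments of 6.11, 5.85, 3.41 and 6.27. NORAD had 175, 171, 184 and 169 fragments, TUG1 114, 140, 133 and 106, PVT1 48, 54, 52 and 47 and OIP5-AS1 45, 43, 56 and 45. SCHLAP1, KCNQ1OT1 and PCAT1 stayed at 21 or fewer. PCA3, PCAT14, ARLNC1, HOTAIR, GAS5, SNHG1 and SNHG12 had no region in any list.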

How the data were processed

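MeRIP-seq libraries were made by the study from MDV-R cells sampled on day 3, with a stranded total RNA kit. Per the methods and the labels, reads were aligned to hg38 with STAR 2.7.0 and GENCODE 39, uniquely mapped reads without duplicates were kept with SAMtools 1.10, and peaks were called for each replicate, IP over input, with MACS2 3.0.0a6. The deposited peak lists have no header and no strand. Their values are the authors' fold enrichment, a ratio of the IP pileup over a local lambda, the deposited −log10 p and −log10 q values, and a score, in the deposited files 10 times the −log10 q. The lists start at a −log10 q of 2.00 to 2.04.

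Peaks were joined by 1 bp of overlap, and a region was placed by its strongest summit in GENCODE 44 on hg38, a later release than the authors used. 3463 regions in 4 lists had their strongest summit in the span of more than 1 gene. Fragments at summits were solved from fold enrichment and p, and the result was checked on simulated data. The methods state an extension of 100 nt and a genome of 300 Mb. The narrowest peaks were 239 to 292 nt wide and the background steps fitted that fragment length in 100% of values, against 57.8% to 59.2% for 100 nt, so the calls were read as fragment calls. A genome of 300 Mb would give libraries of 0.322 to 0.414 M fragments, fewer than the 0.905 to 1.09 M counted at summits, so no library total was used and heights were scaled to the summit total of each list. This replaces the scaling to all IP fragments that was planned.

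Zones and motifs were compared over the 4 lists with exact two-sided sign-flip tests. Genes were named by rule: the first 10 by mean percentile of −log10 p and of fold enrichment, 1 region per gene, the 10 with the most regions and the most exonic regions, up to 6 of each gene list by height, and all writers, readers, erasers and assayed transcripts, with other list members named where absent, and marker genes, TMPRSS2 and the lowest members (SORD, PLPP1, EGR1, SOCS3, SCHLAP1, KCNQ1OT1, PCAT1) named after their values were seen. Some items covered by the rule are not reported here and were taken out of the gene lists and their counts. Members, gene lists and tests were chosen with earlier results of these data known. Python 3.11.15, numpy 2.4.6, pandas 2.3.3, scipy 1.17.1, pysam 0.24.0, matplotlib 3.10.9 and bedtools 2.31.1 were used. Alternatives covered the −log10 q minimum of 5, equal list sizes, overlap rules, the deposited merged regions, motifs, windows and each list left out. Counting intervals were not printed, since all fragments came from PCR libraries without molecular identifiers.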

Additional observations from a re-analysis of the deposited data

Results flagged for a closer look

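Among 60 sets of 4 values examined, 2 had a replicate far from the other 3, a gap that chance gives in about 1 set in 20. The ratio of IP to input coverage was 0.642 in replicate 3, and 0.317 to 0.370 in the others. The fold enrichment of the NEAT1 region was 3.41 in replicate 3, and 5.85 to 6.27 in the others.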

How the results depend on the processing

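With a −log10 q of at least 5 there were 16458 regions in 4 lists, on the deposited merged regions of the whole series 16090, and on chromosomes 1 to 22 and X 16482, against 17302. With lists cut to equal size the share in coding sequence was 35.6% and in 3′UTRs 18.9%. The planned overlap of 50% could change no count over union regions. A stricter rule chosen after seeing the data, a peak over 50% of the region in each list, gave 13373 regions, 36.9% of all, with 37.3% in coding sequence, 19.4% in 3′UTRs and 16.5% in introns, and 127 genes with at least 5 regions in place of 268. Counting exonic regions alone gave 96 such genes. With 1 canonical transcript per gene, 3′UTRs held 16.9% and introns 22.4%. At shifted fragment numbers 0.0887% of peaks were solved.

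Leaving out each list in turn, and asking for all 3 others, gave 17874 to 19123 regions, 52.3% to 55.5% of all, with 32.2% to 33.8% in coding sequence, 17.4% to 18.2% in 3′UTRs and 19.2% to 20.6% in introns. Genes with at least 5 regions numbered 300 to 384, list genes with a region in all lists 100 to 103, the stop codon difference was 0.729 to 0.757 summits per kb and the GGAC excess 16.9 to 18.1 points. Of the first 10 genes, 9 to 10 stayed by −log10 p and 6 to 8 by fold enrichment, with 6 when replicate 3 was left out. The GGAC excess was 17.1 points with distant windows kept in the same exon, also added after seeing the data, and 7.89 points for DRACH.

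No paired analysis was possible because a single group was described and no test set it against another group with the same replicate numbers. With 4 lists no sign-flip p can pass 0.05. Height follows RNA level as well as m6A, intronic and single-list peaks rest on few fragments, and a union region can hold several sites.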
